A study of Mus musculus with 18 samples.

Results

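Hoxd11 is 1 of the 5′ genes of the HoxD cluster, and its contacts were read from the EcoRI fragment that covers most of it. The fragment lies at 74516252 to 74524317 on chromosome 2 (NCBI37/mm9), is 8066 bp long and holds 6869 bp (82.3%) of the annotated gene (ENSMUSG00000042499.10, 74517449 to 74525798, plus strand), without its 3′ end. Contacts were measured by 5C, in which fixed chromatin is cut and religated and each junction is copied by a forward and a reverse primer, so that a fragment is seen only with fragments of the opposite primer direction. All forward–reverse pairs of the Hoxd11 fragment with midpoints at least 10 kb apart were taken, which gave 64 of 4251 such pairs in the embryonic stem cell (ESC) design and 98 of 10068 in the limb design. The rule used position only, and all 64 and all 98 pairs passed the filter on low values.

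The series holds 14 ESC and 4 limb libraries. OS25 ESCs were undifferentiated (2 libraries) or differentiated for 3 d, of which 2 d with retinoic acid (D3, 2 libraries). Labels of the undifferentiated libraries also carry text on differentiation, and their state was taken from their titles. Wild-type ESCs (2 libraries), EED-/- ESCs (2 libraries) and Ring1B-/- ESCs (3 libraries) make up the Polycomb comparison, with Ring1BGWT (2 libraries) and Ring1BG53 (1 library) cells. The labels give feeder fibroblasts and LIF as the culture of all ESC libraries. The paper's methods name feeders for the wild-type, Ring1B-/- and Eed mutant lines, and refer to earlier work for the culture of OS25. The Ring1BGWT and Ring1BG53 lines keep the Ring1B KO genotype and carry wild-type Ring1B or a Ring1B mutant without ubiquitin ligase activity. Limb libraries came from A2 and P2 (2 each), immortalised mesenchymal lines from the anterior and posterior distal forelimb bud of E10.5 Immortomouse embryos, so that each side of the limb is represented by 1 line. Wild-type, EED-/- and Ring1B-/- cells are also separate lines, and line and genotype cannot be told apart. The labels do not say which EED-/- clone a library came from. No expression was measured, so the identity of the cells was not checked against markers.

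Hox proteins are homeodomain transcription factors that give positional identity along the embryo and in its limbs. Hoxd11 and its 5′ neighbours act in the posterior and distal limb bud, where enhancers in the gene desert beyond Lnp and Evx2 drive them. In ESCs the cluster is silent and covered by the Polycomb complexes PRC2, which contains EED and methylates histone H3, and PRC1, which contains the ubiquitin ligase Ring1B.

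The junctions counted here form at EcoRI sites (GAATTC). Sequences are shown around the sites that bound the Hoxd11 fragment and the sites at the 3′ ends of 4 of its partners that carry genes. The ligated ends come from such sites. Each is given with 24 bases on each side, the site in capitals, from the mm9 plus strand. These 4 were picked by gene and are not its 4 highest partners. In the limb design 71 added fragments are also named by a span of 30 bases, and in all 71 this span ends where the fragment ends. The primer sequence of the Hoxd11 fragment was not used here.
Hoxd11 fragment, 5′ end (chr2:74516225-74516278): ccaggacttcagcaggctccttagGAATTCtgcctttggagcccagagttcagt
Hoxd11 fragment, 3′ end (chr2:74524291-74524344): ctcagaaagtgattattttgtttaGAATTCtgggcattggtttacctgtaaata
Evx2 fragment, 3′ end (chr2:74498285-74498338): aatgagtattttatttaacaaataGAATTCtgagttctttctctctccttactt
Hoxd9 fragment, 3′ end (chr2:74538458-74538511): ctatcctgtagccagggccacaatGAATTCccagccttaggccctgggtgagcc
Hoxd8 fragment, 3′ end (chr2:74544612-74544665): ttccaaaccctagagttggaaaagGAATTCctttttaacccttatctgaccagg
Hoxd1 fragment, 3′ end (chr2:74604568-74604621): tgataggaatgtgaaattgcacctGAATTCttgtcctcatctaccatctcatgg

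Interaction frequencies are given as the authors normalized them, in reads per 1000 reads of the sequence run. Totals ran from 216419 to 1708047 reads in ESC libraries and from 478818 to 2096682 in limb libraries, so that 3 reads correspond to 0.00176 to 0.0139 in ESCs and to 0.00143 to 0.00627 in limb cells, which covers counting error only. The Hoxd11 fragment held 4 to 20 empty pairs of 64 per ESC library and 0 to 1 of 98 per limb library. The Ring1B-/- libraries stood apart from each other. Libraries 1 and 2 had mean Hoxd11 contacts with the cluster of 1.07 and 1.24, and library 3, whose title carries no replicate number, had 2.87. The cluster results on Ring1B-/- cells are therefore given with and without library 3. Leaving it out was chosen from these same values, so results without it are no separate support.

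In ESCs, Hoxd11 contacted the rest of the cluster from Evx2 to Hoxd1 at frequencies far above those of its flanks. Of 11 other named genes of the locus, 8 had a fragment that can be measured with Hoxd11. Hoxd10 has no fragment in the design, and those of Hoxd13 and Hoxd12 are of the same primer direction or under 10 kb away. No pair of Hoxd11 with any of these 8 genes passed the test in any comparison. Fragments with a midpoint from the annotated start of Evx2 to the end of Hoxd1 are called the cluster, and 9 of them are partners of Hoxd11. The midpoint of the fragment carrying Evx2 itself (74483052 to 74498311, exonic) lies outside that span, and it is described on its own.

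In undifferentiated OS25 ESCs the highest partner of Hoxd11 by the group mean was the Evx2 fragment, which carries a homeobox gene next to the cluster, with 3.43 and 13.8 reads per 1000. It was followed by the fragment between Evx2 and Hoxd13 (74498789 to 74505529), which overlaps no protein-coding gene, with 3.58 and 7.12. The third was the fragment with the 5′ end of Hoxd3 at a distance of 30.1 kb (74548286 to 74552569, exonic), with 2.71 and 7.27. The next were the Hoxd4 fragment at 49.1 kb (74565758 to 74572992, exonic and also within Hoxd3), with 3.72 and 5.97, and the Hoxd9 fragment at 17.6 kb (74537329 to 74538484, exonic), with 2.56 and 4.27. Library 2 was higher than library 1 for all of these 5 partners, and in library 1 the Evx2 fragment ranked 3, below the Hoxd4 fragment and the interval between Evx2 and Hoxd13.

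In wild-type ESCs the libraries lay closer together. The fragment between Evx2 and Hoxd13 had 5.58 and 5.67 reads per 1000 and the Evx2 fragment 5.09 and 5.66. The Hoxd8 fragment (74542115 to 74544638, exonic) followed with 3.84 and 4.34, then the Hoxd4 fragment with 3.82 and 4.07 and the Hoxd3 fragment at 30.1 kb with 3.98 and 3.79. The contact with Hoxd1, the most distant gene of the cluster at 81.5 kb (74598979 to 74604594, exonic), was 2.46 and 1.79. The 9 cluster partners ranged from 1.79 to 5.67, and the value at 68.4 kb (3.45 and 3.96; 74585661 to 74591759, the 3′ end of Hoxd3) was close to that of Hoxd9 at 17.6 kb (3.48 and 3.55).

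Past Hoxd1 the contacts dropped within a few kilobases. At 85.9 kb (74605699 to 74606639) the values were 0 and 0.155 in wild-type and 0 and 0.310 in undifferentiated OS25 ESCs. The mean over the last 2 cluster partners was 9.67 and 11.8 times that over the first 4 partners beyond Hoxd1 in wild-type ESCs, and 13.8 and 18.8 times in undifferentiated OS25 ESCs. It was 8.06 and 30.9 times in D3, 1.22 and 3.44 in EED-/-, 1.74, 19.2 and 8.81 in Ring1B-/-, 27.2 and 8.39 in Ring1BGWT and 9.16 in Ring1BG53 ESCs. The same 2 fragments also gave higher values with fragments outside the cluster, on average 0.208 against 0.0561 for the 4 beyond Hoxd1, and the part of primer efficiency in the step was not tested. This step was chosen after its values had been seen and carries no test.

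**Figure D1:**
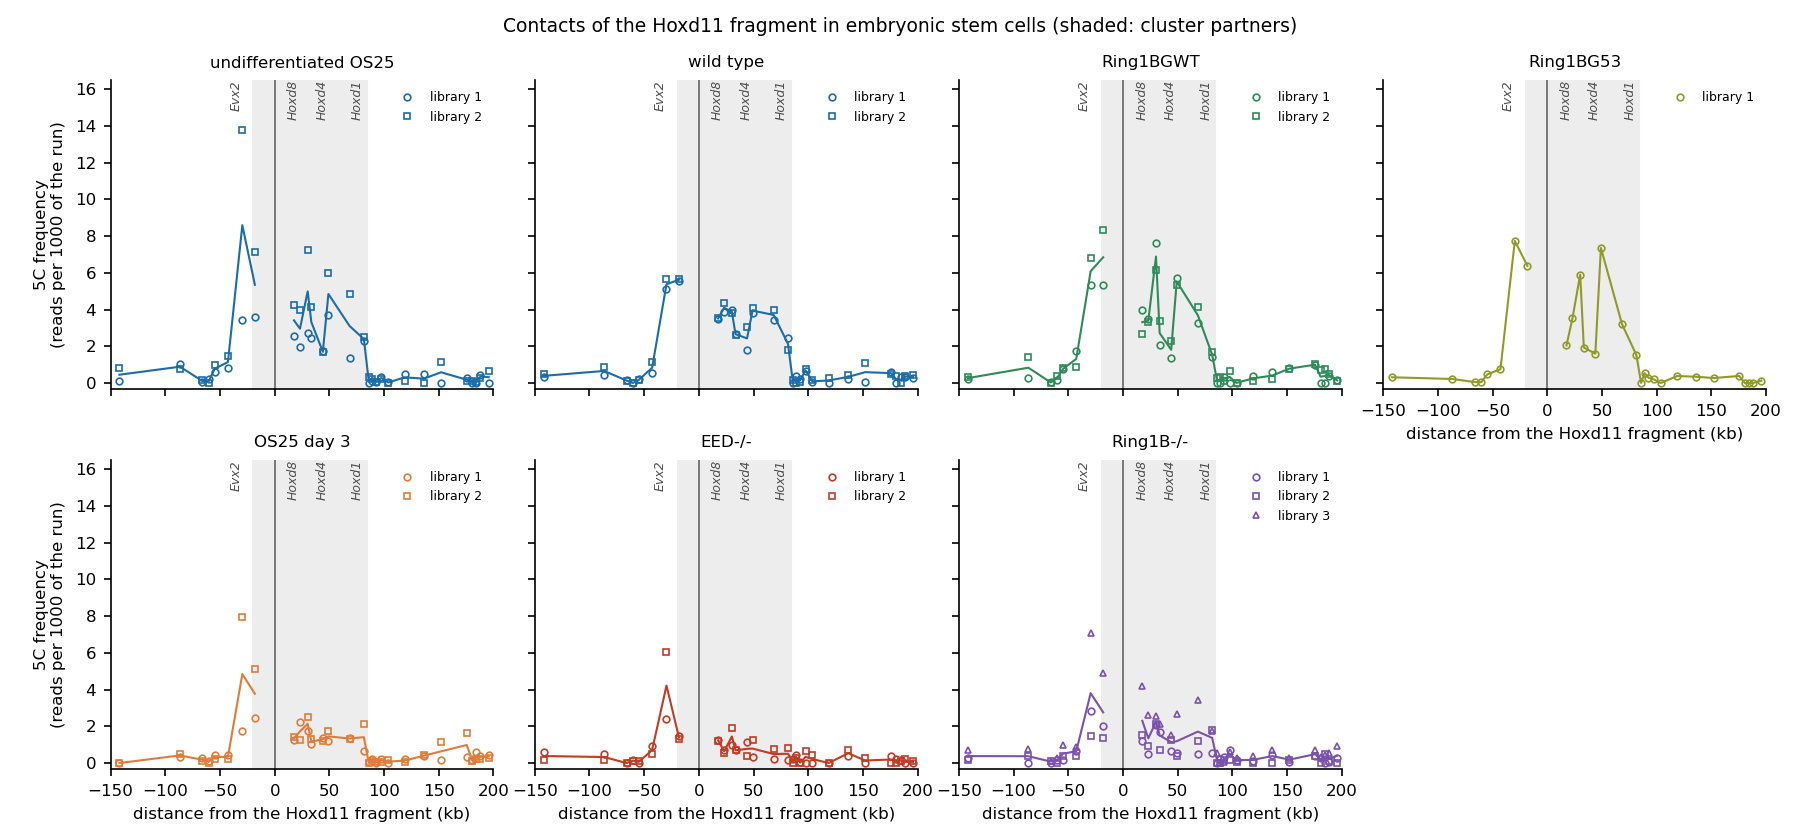
Interaction frequency (reads per 1000, y axis) of the Hoxd11 fragment with the partners nearest to it against distance from it in kb (x axis; negative on the Evx2 side) in the 7 ESC groups, with points for libraries and lines for group means. The shaded span holds the 9 cluster partners, which reach 5.67 in wild-type ESCs and at most 1.91 in EED-/- ESCs, while the Evx2 fragment at -29.6 kb reaches 6.05 in an EED-/- library.

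The Hoxd11 fragment was the anchor with the highest mean contact with the cluster among 22 cluster fragments in each of the 14 ESC libraries. In wild-type ESCs its means were 3.46 and 3.65 reads per 1000, against medians over these anchors of 1.01 and 1.20. The 9 cluster partners were also high for their distance. Their median lay at the 93.3rd to 100th percentile of pairs of other anchors at a similar distance (within 20%), over the 14 ESC libraries. The 54 partners outside the cluster and the Evx2 fragment lay at a median percentile of 65.8 to 93.7, so that Hoxd11 was above the middle of other pairs there too. The pairs compared came from the whole design, inside and outside the cluster. Percentiles of other cluster anchors are not given, so these values do not set Hoxd11 apart from them. Anchors differ in primer efficiency, and its part in these ranks was not tested.

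The cluster partners shared sequence features that the choice of pairs did not use. Their median GC content was 49.9% (44.6 to 62.7%), against 41.7% for the 54 other partners in ESCs (27.9 to 47.7%). They held a median of 26.8 CpG dinucleotides per kb, against 7.93, with the highest density of 89.5 in the Hoxd8 fragment. The Evx2 fragment, with 29.3 CpG per kb, lay with the cluster in this respect. It is also the longest of the 10, at 15260 bp, while cluster partners were 1156 to 7235 bp long.

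The order of mean cluster contacts over ESC groups ran from Ring1BGWT with 3.97 ± 0.242 (SD, n = 2) through Ring1BG53 with 3.72 (n = 1), undifferentiated OS25 with 3.56 ± 1.52 (SD, n = 2) and wild type with 3.55 ± 0.135 (SD, n = 2), to D3 with 1.74 ± 0.360 (SD, n = 2), Ring1B-/- with 1.73 ± 0.993 (SD, n = 3) and EED-/- with 0.883 ± 0.152 (SD, n = 2). The 4 highest groups did not differ beyond their spread, since the undifferentiated OS25 libraries (2.49 and 4.64) bracketed all others. Between wild type and D3, next to each other in this order, the libraries did not overlap. D3 (1.48 and 1.99) lay within the range of Ring1B-/- (1.07, 1.24 and 2.87). The lowest Ring1B-/- library was just above the highest EED-/- library (0.775 and 0.990).

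**Figure D2:**
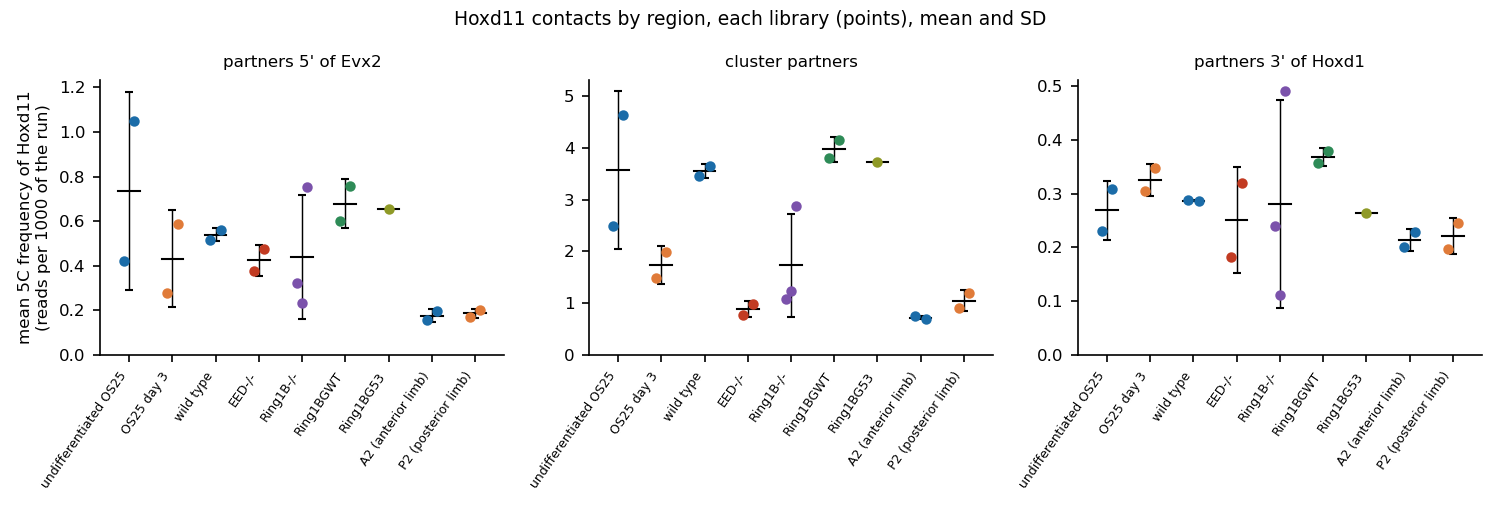
Mean interaction frequency of the Hoxd11 fragment (reads per 1000, y axes start at 0 and differ between panels) with partners 5′ of Evx2, in the cluster and 3′ of Hoxd1, by group. Points are libraries, bars the mean and whiskers the SD; in the cluster panel EED-/- lies at 0.775 and 0.990, below all other ESC libraries.

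The loss of EED asks how far the compact cluster depends on PRC2. Hoxd11 contacts with the cluster were 3.46 and 3.65 reads per 1000 in wild-type and 0.775 and 0.990 in EED-/- ESCs. They fell by 2.00 on the log2 scale (SE 0.46, 3.99-fold), with a limma adjusted p of 0.0142. This was the only region or zone of Hoxd11 that passed the test in any comparison. Over all fragments as anchors, 16 of 387 anchor–region values passed in this comparison (4.13%). Of the 22 anchors in the cluster, all had a negative change in their contacts with it (-2.67 to -0.94, median -1.80), 14 passed the test, Hoxd11 included, and 6 had a larger change than Hoxd11. The call depended on single libraries: with 1 wild-type or EED-/- library left out the change was -1.82 to -2.17, and the limma adjusted p was 0.0451 without EED-/- library 2 but 0.0823 to 0.0948 without any of the other 3.

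All 9 cluster partners were lower in both EED-/- libraries than in both wild-type libraries, which 12.3% of all 3484 pairs tested showed. Hoxd9, Hoxd8, Hoxd4 and Hoxd1, all homeobox genes of the cluster, are named here from its 5′ to its 3′ side. The Hoxd9 fragment had 1.25 and 1.23 in EED-/- ESCs (3.48 and 3.55 in wild type). The Hoxd8 fragment had 0.706 and 0.565 (3.84 and 4.34). The Hoxd4 fragment at 49.1 kb had 0.338 and 1.23 (3.82 and 4.07), and the Hoxd1 fragment had 0.184 and 0.826 (2.46 and 1.79). Over the 9 pairs the median log2 change was -2.02 (-3.09 to -1.49), and over all pairs tested it was 0.

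The contact with the Evx2 fragment, which was not tested against the others, was 2.38 and 6.05 in EED-/- and 5.09 and 5.66 in wild-type ESCs, so that the groups overlapped (log2 change -0.50, 95% interval -3.28 to 2.28, limma adjusted p = 1). It was the highest partner of Hoxd11 in both EED-/- libraries, with 11.4% and 20.4% of all its contacts. The share of Hoxd11 contacts that fell in the cluster, which does not depend on the scaling of a library, was 33.5% and 30.1% in EED-/- against 60.4% and 60.8% in wild-type ESCs. When fragments were assigned by gene overlap, which puts the Evx2 fragment in the cluster and was chosen after the data had been seen, the fall was 1.64 with a limma adjusted p of 0.0559.

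By zone, the fall was 2.02 for the interval between Evx2 and Hoxd13, 2.00 for Hoxd10 to Hoxd8, 1.80 for Hoxd4 to Hoxd3 and 2.78 for Hoxd1 with the 3′ end of Hoxd3, each on the log2 scale. None of the 10 zones passed, with limma adjusted p-values of 0.174 or more, while 0.737% of 1356 anchor–zone values did. No single pair of Hoxd11 passed either (0 of 64), as no pair of any anchor did in any ESC comparison (0% of 3484). Unadjusted limma p-values were under 0.05 for 5 of the 64. Single pairs were ranked by their change in log2(value + 0.02), which gives weight to low values and to zeros. On this scale the largest differences between groups that did not overlap were a rise at 358 kb (74876086 to 74879528, outside protein-coding genes) from 0 and 0 to 0.152 and 0.115, and a fall at -167 kb (74353129 to 74354266, outside protein-coding genes) from 0.629 and 0.757 to 0.168 and 0, neither of which passed (limma adjusted p of 0.428 and 0.375). In reads per 1000 the cluster pairs named above fell by more.

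Loss of Ring1B addresses PRC1. Hoxd11 contacts with the cluster were 1.07, 1.24 and 2.87 in Ring1B-/- ESCs, and all 3 lay below the wild-type libraries. The difference of -1.17 (SE 0.42) did not pass (limma adjusted p = 0.333), as none of 387 anchor–region values did (0%). Without library 3 it was -1.61 (limma adjusted p = 0.0719). Of the 9 cluster partners, 6 were lower in all 3 Ring1B-/- than in both wild-type libraries (6.54% of all pairs). The median log2 change over the 9 was -1.13, against 0.47 over all pairs. Of all pairs at least 10 kb apart, 59.2% and 59.8% were empty in wild-type and 24.2%, 49.6% and 45.7% in Ring1B-/- libraries. The part of these zeros in the median over all pairs was not tested.

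The share of Hoxd11 contacts in the cluster gave another order of the 3 libraries. It was 39.4%, 56.5% and 44.4% in libraries 1 to 3, against 60.4% and 60.8% in the wild type. Library 2, with few Hoxd11 contacts in all, thus kept a high share, and library 3, with many, did not. The Hoxd8 fragment had 0.492, 0.910 and 2.63, and the Hoxd4 fragment 0.533, 0.364 and 2.66. For both, library 3 lay between the wild-type libraries and the other Ring1B-/- libraries. The Evx2 fragment had 2.85, 1.47 and 7.09, a range that includes the wild type.

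No zone of Hoxd11 passed against wild type (0 of 10; 0.0737% of all anchor–zone values) and no pair (0 of 64; 3 at an unadjusted limma p under 0.05). On the log2(value + 0.02) scale the largest rise among groups that did not overlap was again at 358 kb, with 0.479, 0.357 and 0.691 against 0 and 0 (limma adjusted p = 0.543). The largest fall on it was -2.27 at -248 kb (74271886 to 74272735, outside protein-coding genes), with 0.0808, 0 and 0 against 0.153 and 0.137 (limma adjusted p = 0.750), hardly beyond that of the cluster pair with the largest fall (-2.26). In reads per 1000 the Hoxd8 and Hoxd4 fragments fell by far more. The comparisons of EED-/- and Ring1B-/- ESCs share the wild-type libraries.

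EED-/- and Ring1B-/- ESCs were also compared directly. Cluster contacts of Hoxd11 differed by -0.82 (SE 0.42, 95% interval -1.70 to 0.05, limma adjusted p = 0.345) and by -0.39 without Ring1B-/- library 3 (limma adjusted p = 0.749). Of all anchors, 0.258% of region values and 0.664% of zone values passed, none of them of Hoxd11. Only 1 of 9 cluster partners did not overlap between these groups with EED-/- lower, against 11.9% of all pairs. The median over the 9 was -0.73, close to that of all pairs (-0.60). Of all pairs at least 10 kb apart, 62.7% and 60.3% were empty in EED-/- and 24.2%, 49.6% and 45.7% in Ring1B-/- libraries. The part of these zeros in the median over all pairs was not tested. The Hoxd1 fragment overlapped, with 0.184 and 0.826 in EED-/- and 0.541, 1.80 and 1.77 in Ring1B-/- ESCs. The largest differences in log2(value + 0.02) were at 89.0 kb (74608240 to 74610266), where EED-/- was higher (0.432 and 0.249 against 0.193, 0 and 0), and at -213 kb (74307330 to 74307923), where it was lower (0 and 0 against 0.151, 0.107 and 0.268), neither passing (limma adjusted p of 0.653 and 0.437).

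The Ring1BGWT and Ring1BG53 lines ask whether Ring1B restores the contacts and whether its ligase activity is needed. Cluster contacts of Hoxd11 were 3.80 and 4.14 in Ring1BGWT and 3.72 in the Ring1BG53 library, above all 3 Ring1B-/- libraries. The difference was 1.33 (SE 0.42, limma adjusted p = 0.128) for Ring1BGWT and 1.24 (SE 0.53, limma adjusted p = 0.518) for Ring1BG53, whose 1 library is assumed to vary like the other groups. Neither passed, as no anchor–region, anchor–zone or pair value of any anchor did (0% in each). Without Ring1B-/- library 3, which had been singled out by these same values, the difference was 1.76 for Ring1BGWT and passed (limma adjusted p = 0.0272). It did not pass without Ring1B-/- library 1 (limma adjusted p = 0.531) or without Ring1B-/- library 2. For Ring1BG53, with its 1 library, the difference without Ring1B-/- library 3 was 1.67 and did not pass.

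All 9 cluster partners had a positive difference for both lines, with a median of 1.48 for Ring1BGWT and 1.31 for Ring1BG53, where the median over all pairs was -0.35 and -0.52. The values were higher in Ring1BGWT than in all Ring1B-/- libraries for 4 of them (8.18% of all pairs) and in Ring1BG53 for 5 (16.6% of all pairs). Of all pairs at least 10 kb apart, 63.5% and 52.1% were empty in Ring1BGWT and 53.8% in Ring1BG53. In the Ring1B-/- libraries 24.2%, 49.6% and 45.7% were empty. The part of these zeros in the medians over all pairs was not tested. The Hoxd4 fragment at 49.1 kb had 5.73 and 5.33 in Ring1BGWT and 7.36 in Ring1BG53, against 0.533, 0.364 and 2.66 in Ring1B-/- ESCs. The Hoxd3 fragment at 30.1 kb had 7.60 and 6.18 in Ring1BGWT and 5.90 in Ring1BG53, against 2.07, 2.10 and 2.55. In contrast, the Hoxd1 fragment, with 1.40, 1.68 and 1.53 in the rescued lines, lay within the range of Ring1B-/- libraries (0.541 to 1.80). The share of contacts in the cluster was 58.3%, 56.7% and 60.0%.

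The largest differences of Ring1BGWT from Ring1B-/- in log2(value + 0.02) lay outside the cluster, and were at -276 kb (74241352 to 74246793), with 0.933 and 1.00 against 0.138, 0 and 0.352, and at -234 kb (74285357 to 74286820), with 0 and 0 against 0.0790, 0.515 and 0.262 (limma adjusted p of 0.701 and 0.564). For Ring1BG53 they were at 89.0 kb, with 0.542 against 0.193, 0 and 0, and at 348 kb (74868641 to 74868822), with 0 against 0.185, 0.218 and 0.256 (limma adjusted p of 0.907 for both). None of these 4 fragments overlaps a protein-coding gene. The comparisons of the lines share the Ring1B-/- libraries.

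Differentiation of OS25 ESCs addresses the cluster as part of it is activated. According to the paper, activation at D3 is mainly in the 3′ part, whereas Hoxd11 is a 5′ gene whose expression was not measured here. Cluster contacts of Hoxd11 were 2.49 and 4.64 in undifferentiated and 1.48 and 1.99 in D3 cells, which do not overlap. The difference of -0.98 (SE 0.46, 95% interval -1.93 to -0.02) did not pass (limma adjusted p = 0.424), as no anchor–region or anchor–zone value did (0% of each). It moved from -0.53 without undifferentiated library 2 to -1.42 without undifferentiated library 1. Of the 9 cluster partners, 7 were lower in both D3 libraries (10.9% of all pairs). The median over the 9 was -0.98, against 0.09 over all pairs.

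The fragments that overlapped were Hoxd8, with 1.95 and 3.97 before and 2.22 and 1.23 after, and the interval between Evx2 and Hoxd13, with 3.58 and 7.12 before and 2.44 and 5.11 after. The Hoxd4 fragment at 49.1 kb had 3.72 and 5.97 in undifferentiated and 1.18 and 1.72 in D3 cells. The Hoxd9 fragment had 2.56 and 4.27 against 1.24 and 1.44. The Evx2 fragment, outside the 9, overlapped as well, with 3.43 and 13.8 against 1.75 and 7.94. The share of Hoxd11 contacts in the cluster was 57.5% and 56.8% before and 45.1% and 42.9% after differentiation, and that 3′ of Hoxd1 was 20.7% and 14.7% before and 36.0% and 29.1% after. The level of the 3′ contacts overlapped, with means of 0.230 and 0.308 before and 0.304 and 0.347 after.

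Over Mtx2, a gene 3′ of the cluster that encodes a mitochondrial outer membrane protein, D3 cells had 0.342 and 0.598 and undifferentiated cells 0.120 and 0.386. For Mtx2 as a zone the groups thus overlapped, and the difference did not pass (limma adjusted p = 0.933). In log2(value + 0.02) the largest rise among groups that did not overlap was within this gene at 184 kb (74703567 to 74705836, exonic), from 0 and 0.0670 to 0.574 and 0.234. The largest fall on that scale was in Lnp at -142 kb (74372969 to 74383683, exonic), from 0.111 and 0.792 to 0 and 0.00251, while in reads per 1000 another Mtx2 fragment rose by more and the Hoxd4 and Hoxd9 fragments fell by more. The limma adjusted p was 0.965 for both, and 1 of 64 pairs had an unadjusted limma p under 0.05.

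Undifferentiated OS25 and wild-type ESCs, which are both pluripotent, differed by -0.06 in cluster contacts (SE 0.46, 95% interval -1.02 to 0.89, limma adjusted p = 0.997; 0% of anchor–region values passed). Its sign turned when libraries were scaled by the median nonzero pair (0.35). No Hoxd11 zone passed either, while 0.221% of anchor–zone values did. In log2(value + 0.02) the largest differences were a higher value in OS25 at 288 kb (74806522 to 74809245), with 0.534 and 0.618 against 0 and 0, and a lower one at 239 kb (74759069 to 74759941), with 0.0407 and 0 against 0.171 and 0.238 (limma adjusted p of 0.798 and 0.832). Both lie outside protein-coding genes.

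**Figure D3:**
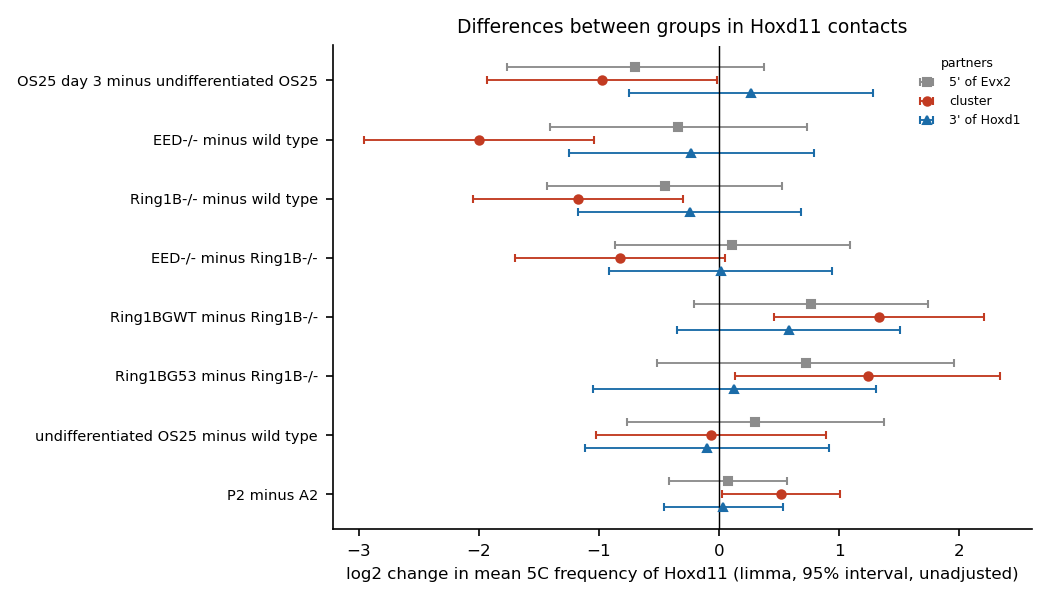
Log2 change in the mean interaction frequency of the Hoxd11 fragment (x axis) for each comparison (y axis), with partners 5′ of Evx2 (squares), in the cluster (circles) and 3′ of Hoxd1 (triangles). Whiskers are unadjusted 95% intervals from limma, which for P2 against A2 rest on a spread pooled over all anchors. After adjustment the cluster change of -2.00 in EED-/- ESCs is the one that passed.

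Beyond the cluster, Hoxd11 contacts were low in every ESC group. Means over the 20 partners 5′ of Evx2, the Evx2 fragment included, ran from 0.424 ± 0.0696 (SD, n = 2) in EED-/- to 0.737 ± 0.444 (SD, n = 2) in undifferentiated OS25 ESCs. These means rested largely on the Evx2 fragment. Over the 19 partners without it they were 0.224 ± 0.0631 in EED-/- and 0.324 ± 0.0835 in undifferentiated OS25 ESCs, and the lowest and highest groups were D3 with 0.200 and 0.199 in its libraries and Ring1BGWT with 0.394 ± 0.0614 (SD, n = 2). Means over the 35 partners 3′ of Hoxd1 ran from 0.251 ± 0.0977 (SD, n = 2) in EED-/- to 0.368 ± 0.0163 (SD, n = 2) in Ring1BGWT ESCs. No change of Hoxd11 on either side passed in any comparison, nor did the ratio of its 5′ to its 3′ contacts at 10 to 250 kb. That ratio was between -0.70 and 0.53 on the log2 scale over the 14 libraries, lowest in wild-type ESCs with -0.68 ± 0.04 (SD, n = 2) and highest by the mean in EED-/- with 0.09 ± 0.62 (SD, n = 2). The latter rested on library 1 (0.53), since library 2 had -0.34, below both undifferentiated OS25 libraries.

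The gene-bearing fragments whose contacts with the cluster varied most like those of Hoxd11 over the 14 ESC libraries were those of Hoxd13 (Spearman's rho of 0.974), Hoxd3 at 30.1 kb (0.969) and Evx2 (0.952). The median over 37 gene-bearing fragments was 0.411. These values describe libraries that share their scale and groups, and carry no test. The Hoxd3 and Evx2 fragments are partners of Hoxd11, so that their pair with it counts in both means compared. The Hoxd13 fragment has the primer direction of Hoxd11 and meets fragments that Hoxd11 also meets.

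In limb cells, Hoxd11 contacted the near part of the cluster most, and its contacts fell towards the 3′ part. By the mean over all 4 libraries the highest partner was the Hoxd3 fragment at 30.1 kb, with 1.45 and 1.67 reads per 1000 in A2 and 1.86 and 2.32 in P2. It was the highest in both A2 libraries but in neither P2 library, where the interval between Evx2 and Hoxd13 (library 1) and the Hoxd9 fragment (library 2) were higher. By that mean it was followed by the interval between Evx2 and Hoxd13, with 1.21 and 0.974 in A2 and 1.90 and 2.10 in P2, and the Hoxd9 fragment, with 0.992 and 0.797 in A2 and 1.47 and 2.61 in P2. The next were the Hoxd3 intron fragment at 33.5 kb (74552740 to 74554815), with 0.801 and 0.844 in A2 and 0.712 and 1.31 in P2, and the Hoxd8 fragment, with 0.661 and 0.451 in A2 and 0.812 and 0.884 in P2. From 49.1 kb on, cluster partners had 0.218 to 0.538. Among 21 cluster fragments, Hoxd11 ranked 1 or 2 as an anchor for cluster contacts in the 4 libraries.

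The Evx2 fragment was not among the main partners here. It had 0.392 and 0.433 in A2 and 0.359 and 0.368 in P2, and ranked 10th to 19th of 98, whereas it ranked 1 to 4 of 64 in every ESC library. Limb and ESC libraries differ in primer design, and their values were not tested against each other. The share of contacts in the cluster was 30.2% and 25.3% in A2 and 33.5% and 35.6% in P2.

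Mean cluster contacts were 0.742 and 0.701 in A2 and 0.904 and 1.20 in P2, or 0.722 ± 0.0293 and 1.05 ± 0.207 (SD, n = 2 each). P2 was thus higher in both libraries. The difference of 0.52 (SE 0.25, 95% interval 0.02 to 1.01) did not pass (limma adjusted p = 0.999), and 0.175% of 572 anchor–region values did. In this fit limma pooled the spread over all anchor–region values (1144 degrees of freedom), which reuse the same pairs and libraries. SE and interval therefore do not measure the spread of Hoxd11 itself, and the interval may be too narrow. Of the 9 cluster partners, 5 were higher in both P2 libraries (15.2% of all pairs), namely those up to 30.1 kb from Hoxd11 on either side and Hoxd1. Outside the 9, the Evx2 fragment at -29.6 kb was lower in both P2 libraries, as 15.7% of all pairs were, with 0.359 and 0.368 against 0.392 and 0.433. The Hoxd4 fragment at 44.0 kb (74563668 to 74564940) was lower, with 0.411 and 0.357 against 0.520 and 0.744. The median over the 9 was 0.38, against 0.03 over all pairs, and the difference was 0.87 for the zone between Evx2 and Hoxd13 and 0.96 for Hoxd10 to Hoxd8. None of 12 zones passed (limma adjusted p of 0.999 for each; 0% of 2418 values), and none of 98 pairs (0% of 8157 pairs).

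Contacts of Hoxd11 with the 5′ gene desert, where limb enhancers lie, were measured as far as -765 kb. A2 and P2 overlapped in most of it. The zone between the start of the ESC design and Lnp had 0.161 and 0.213 in A2 and 0.200 and 0.198 in P2. The Lnp gene had 0.283 and 0.303 in A2 and 0.242 and 0.354 in P2, and the interval from Lnp to Evx2 had 0.272 and 0.309 in A2 and 0.243 and 0.272 in P2, where the higher P2 value lay just under the lower A2 value. The desert farther 5′ had 0.105 and 0.130 in A2 and 0.111 and 0.138 in P2 next to the ESC design, and farther out it had 0.131 and 0.190 in A2 and 0.172 and 0.208 in P2. On the 3′ side, Mtx2 had 0.241 and 0.289 in A2 and 0.211 and 0.240 in P2, which do not overlap but did not pass (limma adjusted p = 0.999).

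In log2(value + 0.02) the largest single differences of groups that did not overlap were at -60.3 kb (74459789 to 74460207, outside protein-coding genes), where P2 was higher (0.107 and 0.161 against 0.0888 and 0), and in Lnp at -142 kb, where P2 was lower (0.242 and 0.350 against 0.452 and 0.576). In reads per 1000 the Hoxd9 fragment and the interval between Evx2 and Hoxd13 rose by more than the fragment at -60.3 kb. Neither named pair passed (limma adjusted p of 0.999 for both), and 1 of 98 pairs had an unadjusted limma p under 0.05.

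**Figure D4:**
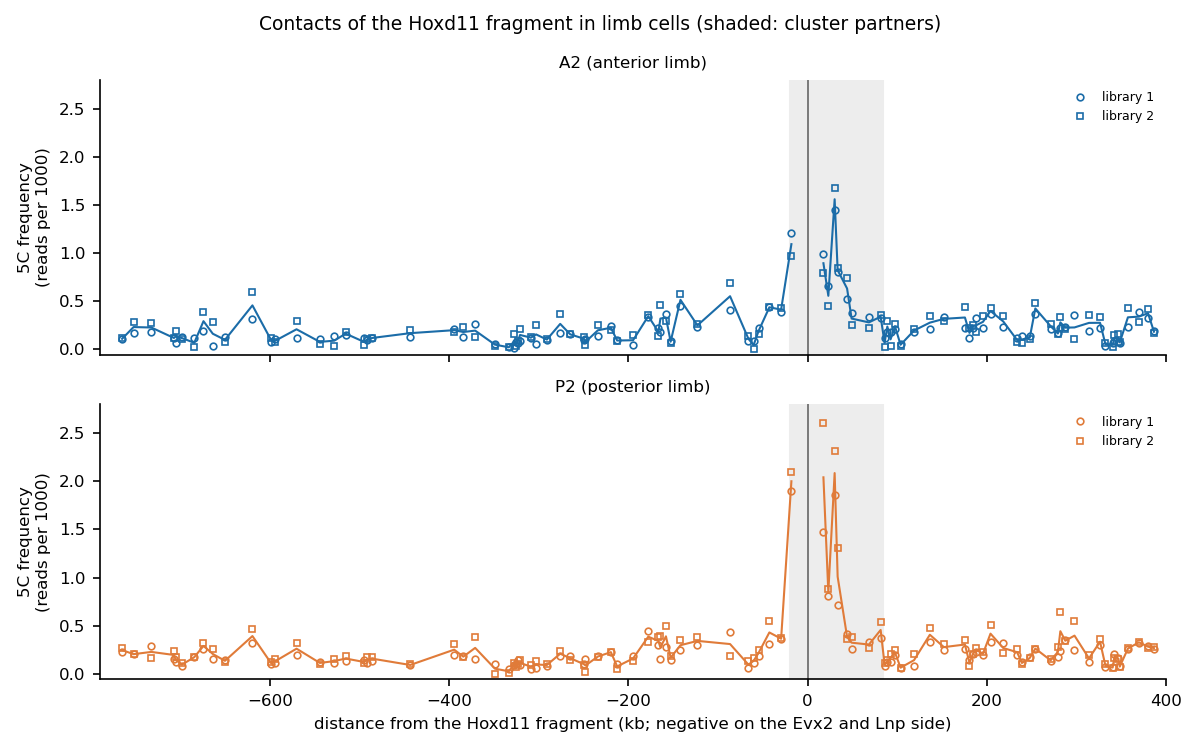
Interaction frequency (reads per 1000, y axis) of the Hoxd11 fragment with 98 partners against distance from it in kb (x axis) in A2 and P2 limb cells, with points for libraries and lines for group means. The shaded span holds the 9 cluster partners; the Hoxd9 fragment reaches 2.61 in P2 and 0.992 in A2, and the zone means of the 5′ desert lie between 0.105 and 0.213.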

How the data were processed

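5C signal was measured in 18 libraries, grouped by their labels; the rescue constructs and culture details are those of the study's methods. The deposited matrices hold signal values. The authors scaled each contact's reads to 1000 reads of its run; coordinates are mm9, and the sources used here name no aligner. Nonzero values are whole multiples of a step (within 0.0149 reads), which gave the totals. Replicates differed by more than sampling noise (chi-square over degrees of freedom, 25.1 to 214). Of 133 and 203 fragments, all end at an EcoRI site.

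The Hoxd11 pairs, zones and lists were chosen with earlier results of these data known. Region and zone values are means over pairs, zeros included. Fragments were assigned by midpoint, with bounds from GENCODE gene positions. Tests used limma 3.58.1 (R 4.3.3) on log2(value + 0.02), with a filter of a mean over libraries above 0.02, on the whole table of every anchor, with Benjamini-Hochberg adjustment at 0.05 within each comparison; all 14 ESC libraries shared a fit and the 4 limb libraries another. The procedure was tested on simulated data with independent normal noise in each row. Region and zone values here reuse the same pairs and libraries, so that simulation does not show how reliable their calls are. An exact permutation test of 2 against 2 libraries cannot pass the threshold. Where labels do not say that replicates were separate cultures, p-values measure the spread between libraries. For limb regions that spread was pooled over all anchors. Partners named are the 5 highest in undifferentiated OS25, wild-type and limb libraries and, as no pair passed, the largest log2(value + 0.02) difference each way per comparison among groups that did not overlap, besides all zones and genes of the locus.

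Alternatives covered the pseudocount, the scaling of libraries and primers, filters, minimum distance, medians, a fit of only the compared groups, omission of single libraries and the replicate number as a block. Scripts ran under Python 3.11.15 with scipy 1.17.1, matplotlib 3.10.9, pandas 2.3.3 and numpy 2.4.6.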

Additional observations from a re-analysis of the deposited data

How the results depend on the processing

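The fall of Hoxd11 cluster contacts in EED-/- ESCs (-2.00) kept its direction under all 14 alternatives and passed under 8. It did not pass when primer means were equalised (-0.90, limma adjusted p = 0.129). By construction this gives all fragments of a library the same mean over their pairs. Nor did the fall pass with medians over pairs (-2.22, limma adjusted p = 0.0916). Fragments assigned by gene overlap (-1.64, chosen after seeing the data) gave no pass either. The fall also did not pass when any of 3 of its 4 libraries was left out. Over the 4 left out in turn the range was -2.17 to -1.82. The difference of Ring1BGWT from Ring1B-/- (1.33) passed with the replicate number as a block (1.76, limma adjusted p = 0.0251), as it did without Ring1B-/- library 3. The block gives that library a level of its own, so these 2 results are not separate. Its title has no replicate number and it was called 3, whereas such titles were numbered 1 in the other ESC groups. This pass therefore rests on the numbering chosen. Without single libraries the difference ranged from 1.06 to 1.76. The other leave-one-out ranges were -1.42 to -0.53 for D3, -1.61 to -0.91 for Ring1B-/-, -1.09 to -0.39 for EED-/- against Ring1B-/-, 0.97 to 1.67 for Ring1BG53 and 0.32 to 0.71 for P2, with no change of call. The difference between undifferentiated OS25 and wild type (-0.06) turned sign when scaled by the median nonzero pair (0.35), with primers scaled (0.077), with assignment by gene overlap (0.020) and without single libraries (-0.51 to 0.38). The change of the Evx2 fragment in EED-/- turned to 0.54 with primers scaled and ranged from -1.16 to 0.17 without single libraries. Directions of the changes outside the cluster and of the 5′ to 3′ ratio, none of which passed under any alternative, turned under some alternative in 19 of 24. With only the compared groups in the fit, 6 Hoxd11 pairs passed for EED-/- (127 of all pairs) and 1 for undifferentiated OS25 against wild type (77 of all pairs), and without a filter 2 passed for Ring1B-/- (24 of all pairs), where 0 passed otherwise. The causes of these changes were not tested. Calls over all anchors moved as well. Region calls for EED-/- against wild type went from 16 to 1 with primers scaled and to 0 without wild-type library 2, and those for EED-/- against Ring1B-/- from 1 to 40 with median scaling and to 14 with medians over pairs. Zone calls for EED-/- against wild type went from 10 to 0 with only the compared groups. For P2 against A2, 0 zones and 0 pairs passed with all libraries, while 50 zones and 17 pairs passed without A2 library 1, 2 zones without A2 library 2 and 9 zones without P2 library 1, none of them of Hoxd11.

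Replicate numbers did not pair the libraries. Deviations of same-numbered libraries from their group means correlated between -0.02 and 0.09 over 30 combinations of ESC libraries, and at 0.08 in limb cells. Where both groups hold 2 libraries, the 2 numbers give the same value by construction, so the combinations are not all separate. Those with Ring1B-/- depend on how its libraries were numbered. The block changed no other call of Hoxd11. A count test on recovered reads had been planned but was not run. With 2 or 3 libraries per group, no pair of any fragment passed with the settings of the report, and a missing call for a single Hoxd11 partner does not show that it was the same in both groups.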
